A study of Mus musculus with 4 samples.

Results

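The 9 genes described here were the EGF family ligands Areg, Ereg, Hbegf, Tgfa, Btc and Epgn and the ERBB receptors Egfr, Erbb2 and Erbb3, chosen by gene symbol from the 20197 genes of the expression table. They comprise 6 ligands and 3 receptors, and all 9 had a row. RNA was sequenced from 4T1 cells, a mouse mammary tumor line grown in culture, wild type in genotype and not treated beyond the dye. The cells were stained with MitoSpy Red (20 nM), a fluorescent mitochondrial dye whose uptake rises with the potential across the inner membrane (mitochondrial membrane potential, MMP). The top 5% of cells by fluorescence were sorted as high MMP and the bottom 5% as low MMP. Each group held 2 samples of 100000 cells, named here high MMP 1 and 2 and low MMP 1 and 2, and the comparison asked how transcript levels differ between cells of high and low mitochondrial activity. The study's legends count replicates of this comparison as independent experiments or tumors, while the labels do not say which samples were handled together.

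EGF family ligands are made as membrane-anchored precursors and are released by metalloproteinases of the ADAM family. Released ligand binds receptors of the ERBB family, which then pair, phosphorylate each other and signal through adaptors to ERK and to PI3K. EGFR binds EGF, amphiregulin and TGF-alpha, ERBB3 binds neuregulins and has weak kinase activity of its own, and ERBB2 has no known direct ligand and acts as the partner of the other receptors. In the mammary gland, amphiregulin drives the outgrowth of ducts, and ERBB2 is amplified in a subset of breast tumors.

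In these cells the transcripts of the ligands Hbegf, Areg and Tgfa and of the receptor Erbb2 were the most abundant per length, and Ereg was at the limit of detection. The 5 ligands above that limit were 1.11- to 1.47-fold higher in the mean of the high MMP samples, without overlap between the groups, as were 13.5% of all genes. Erbb2 and Erbb3 were 1.31- and 1.44-fold higher in the mean of the low MMP samples, also without overlap, as were 24.5% of all genes. No difference of the 9 genes passed the test across all genes (limma on log2 values, Benjamini-Hochberg adjusted p of 0.472 or more), which 0% of the 20197 genes passed.

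The promoters of Areg, Tgfa and Erbb2, 2 abundant ligands and the most abundant receptor, are shown because Areg and Tgfa were both higher and Erbb2 was lower in the high MMP means. RefSeq promoter windows (build GRCm38.p6) were found for 6 of the 9 genes, and none was available for Hbegf, Ereg or Erbb3. Each sequence holds the 250 bases before the annotated start, 5′ to 3′ on the gene's strand. The windows lie at chr5:91139349-91139598 (Areg), chr6:86194972-86195221 (Tgfa) and chr11:98412234-98412483 (Erbb2), all on the plus strand. Several motifs were searched on both strands. The cAMP response element was searched as TGACGTCA, and the AP-1 site, which binds Fos and Jun proteins, was searched with the letters TGANTCA. The GC box, which binds Sp1, was searched with the letters GGGCGG. The core promoter element known as the TATA box was searched as TATAAA. The upstream element named after its letters was searched as CCAAT. Matches are in capitals, written as they read on the strand shown.
Areg: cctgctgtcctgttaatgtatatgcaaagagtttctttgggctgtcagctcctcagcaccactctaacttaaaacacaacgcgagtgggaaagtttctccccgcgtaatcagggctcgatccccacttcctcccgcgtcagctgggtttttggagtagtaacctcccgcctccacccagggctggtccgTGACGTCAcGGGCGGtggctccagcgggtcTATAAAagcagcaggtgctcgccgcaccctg
Tgfa: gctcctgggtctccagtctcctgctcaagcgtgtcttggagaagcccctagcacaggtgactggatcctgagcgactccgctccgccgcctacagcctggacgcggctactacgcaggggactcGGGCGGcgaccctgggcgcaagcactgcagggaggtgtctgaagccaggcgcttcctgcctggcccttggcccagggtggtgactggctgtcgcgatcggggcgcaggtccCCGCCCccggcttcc
Erbb2: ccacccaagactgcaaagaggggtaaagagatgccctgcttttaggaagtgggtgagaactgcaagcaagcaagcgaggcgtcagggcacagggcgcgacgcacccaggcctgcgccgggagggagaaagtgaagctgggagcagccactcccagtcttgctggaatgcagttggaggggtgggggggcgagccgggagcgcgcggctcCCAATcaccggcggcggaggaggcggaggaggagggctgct

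The Areg window held the cAMP response element, a GC box next to it and a TATA box, beginning 61, 52 and 31 bases before the start. The cAMP response element was in 1.55% of 32851 such windows of all mouse promoters, the TATA box in 12.4% and the GC box in 32.7%. The Tgfa window held 2 GC boxes, beginning 126 and 15 bases before the start, and the Erbb2 window held CCAAT 41 bases before the start, a motif of 33.9% of windows. The windows of Tgfa and Erbb2 had a GC content of 69.2% and 66%, and that of Areg 57.2%, against a median of 52.4% over all windows. The AP-1 letters, present in 6.75% of windows, were in none of the 6 windows of these genes. The last 14 bases of the Erbb2 window lie in an exon of the GENCODE annotation, whose start for the gene is earlier than that of RefSeq.

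The values are reads per gene scaled to 20000000 reads assigned to genes per library, called normalized reads below. The libraries held 22591970 to 26395015 assigned reads and detected 18643 to 18854 genes. The pair of high MMP libraries differed more than the pair of low MMP libraries, with a chi-square per gene of 43.2 against 9.08, so neither group held the same library in both of its samples. The identity of the cells was checked by markers. The epithelial markers Krt8 (13147 to 19554 normalized reads) and Epcam (3647 to 4619) were high in all 4 libraries. Of the 7 epithelial markers analysed, Cdh1 was lower in high MMP (log2 difference -0.34, SE 0.12) and Krt14 higher (0.32, SE 0.10), each without overlap and with no adjusted p under 0.05 in limma, and the groups overlapped for the other 5. Krt5 had no row in the expression table. The pan-leukocyte gene Ptprc had 0 to 2 reads, and the endothelial markers Pecam1 and Cdh5 had at most 7. Esr1, the estrogen receptor, was at 203 to 251 normalized reads.

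Hbegf, which encodes heparin-binding EGF-like growth factor, was the most abundant ligand. Its level was 5017 and 6126 normalized reads in high MMP 1 and 2 and 4177 and 4556 in low MMP 1 and 2. Both high MMP samples were above both low MMP samples, and the groups did not overlap. The mean was 5572 ± 785 against 4366 ± 268 (SD, n = 2 each), a 1.28-fold difference and 0.35 on the scale of log2(normalized reads + 1), with an SE of 0.13 and a 95% interval of -0.02 to 0.71 (limma adjusted p = 0.526). The log2 difference was 0.20 without high MMP 2. Hbegf (ENSMUSG00000024486) lies on the minus strand of chromosome 18 (GRCm38), from 36504927 to 36515805.

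Areg (ENSMUSG00000029378, chromosome 5, 91139599 to 91148432, plus strand) encodes amphiregulin, a low-affinity ligand of EGFR. It was at 1046 and 1197 normalized reads in high MMP 1 and 2 and at 972 and 908 in low MMP 1 and 2. Again the high MMP samples were above the low MMP samples without overlap, though high MMP 1 and low MMP 1 lay close together. The means of 1121 ± 107 and 940 ± 45.1 differed 1.19-fold, by 0.25 on the log2 scale (SE 0.10, 95% interval -0.03 to 0.53, limma adjusted p = 0.558). Without high MMP 2 the log2 difference was 0.15.

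Tgfa (ENSMUSG00000029999, chromosome 6, 86195223 to 86275719, plus strand) encodes TGF-alpha, a high-affinity ligand of EGFR. It was at 1997 and 2267 normalized reads in the high MMP samples and at 1887 and 1606 in the low MMP samples. The groups did not overlap, with low MMP 1 next to high MMP 1 as for Areg. The means were 2132 ± 191 and 1746 ± 198, a 1.22-fold difference of 0.29 on the log2 scale (SE 0.12, 95% interval -0.05 to 0.63, limma adjusted p = 0.573). Without low MMP 2 the log2 difference was 0.17.

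Btc and Epgn, which encode betacellulin and epigen, were measured at low levels. Btc was at 97.0 and 96.2 normalized reads in high MMP and 90.7 and 84.1 in low MMP, from 95 to 128 reads per library. The Btc groups did not overlap, but the log2 difference of 0.14 was smaller than its SE of 0.15. Epgn was at 19.7 and 24.3 normalized reads in high MMP and 15.7 and 14.2 in low MMP, which rested on 26, 29, 18 and 16 reads. Its means differed 1.47-fold, 0.52 on the log2 scale with an SE of 0.28 (limma adjusted p = 0.667), without overlap between the groups. The 95% Poisson intervals of the Epgn reads, 17.0 to 38.1 in high MMP 1 and 10.7 to 28.5 in low MMP 1 for example, overlapped. Intervals of single libraries do not test a difference between the groups, so no conclusion is drawn from that overlap. These intervals cover counting error only.

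Ereg, which encodes epiregulin, had 3 and 0 reads in high MMP 1 and 2 and 0 and 2 reads in low MMP 1 and 2. No library was above 3 reads, which is also the number that a count of 0 still allows, so its expression was not detectable at this depth and no fold change is given.

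**Figure D1:**
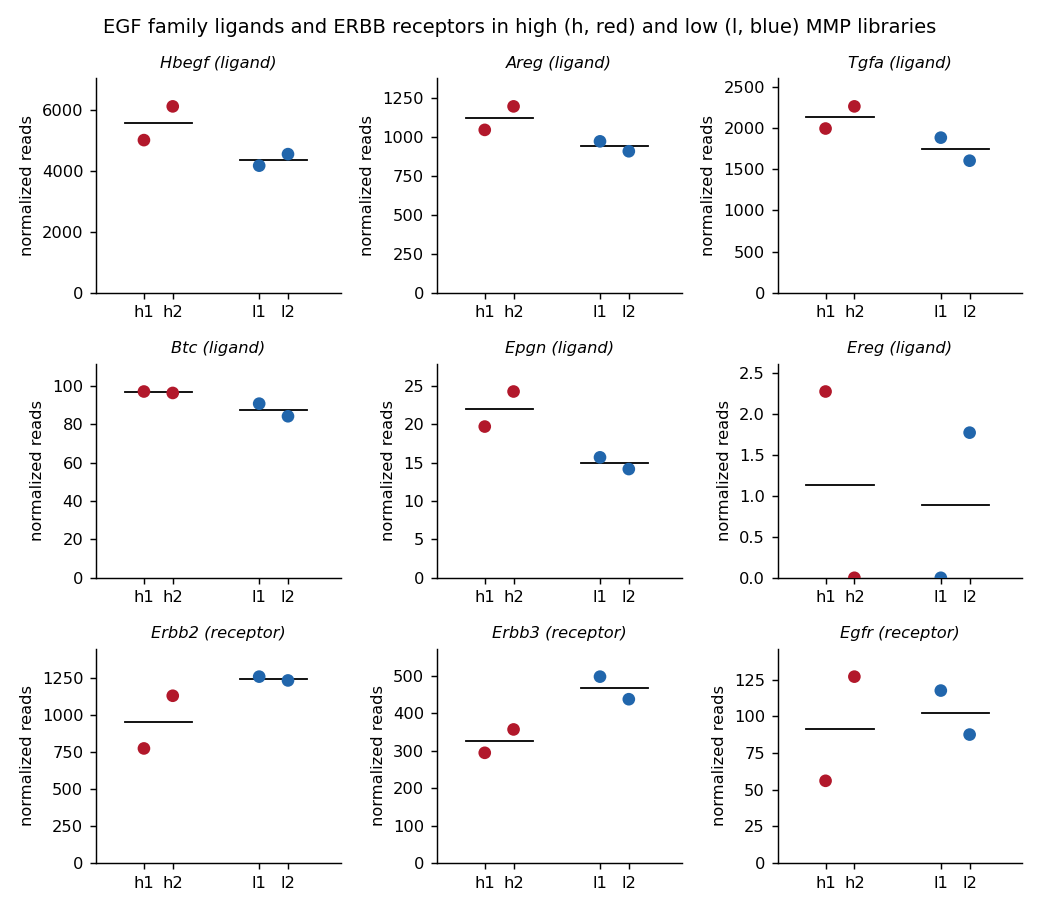
Normalized reads of each of the 9 genes in the 4 libraries (points; high MMP, h, in red and low MMP, l, in blue; lines are group means; each panel has its own linear axis from 0). Both high MMP points lie above both low MMP points for Hbegf, Areg, Tgfa, Btc and Epgn, and below them for Erbb2 and Erbb3, while the points of Egfr and Ereg overlap.

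Among the receptors, Erbb3 was the only gene of the 9 with an unadjusted p under 0.05 (limma, 0.0194). It was at 295 and 357 normalized reads in high MMP 1 and 2 and at 499 and 438 in low MMP 1 and 2. Both low MMP samples were above both high MMP samples, with a gap larger than the difference within either pair. The means were 326 ± 44.2 in high MMP and 468 ± 42.7 in low MMP, a difference of -0.53 on the log2 scale (SE 0.14, 95% interval -0.91 to -0.14). After adjustment over all genes the p was 0.472 in limma, 0.436 in edgeR and 0.573 in DESeq2. The value in limma is the smallest adjusted p of any gene in that fit, shared with genes of smaller unadjusted p. Without high MMP 1, low MMP 1 or low MMP 2 in turn, its unadjusted p was no longer under 0.05. The gene (ENSMUSG00000018166) lies on the minus strand of chromosome 10, from 128567523 to 128589652 on GRCm38.

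Erbb2 was at 774 and 1130 normalized reads in the high MMP samples and at 1259 and 1233 in the low MMP samples. The low MMP samples lay close together, and high MMP 1 was far below the other 3 samples. The means were 952 ± 252 and 1246 ± 18.1, with a log2 difference of -0.41 (SE 0.20, 95% interval -0.96 to 0.13, limma adjusted p = 0.628). The size of this difference rested on high MMP 1, since it was -0.14 without that library and -0.69 without high MMP 2. Erbb2 (ENSMUSG00000062312) lies on the plus strand of chromosome 11, from 98412470 to 98437716.

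Egfr, whose product is a receptor of the 6 ligands, was at 56.1 and 127 normalized reads in high MMP 1 and 2. It was at 118 and 87.6 in low MMP 1 and 2. High MMP 1 was the lowest and high MMP 2 the highest of the 4, so the low MMP samples fell between them. The log2 difference of -0.26 had an SE of 0.45 and a 95% interval of -1.49 to 0.96, and it was 0.32 without high MMP 1. Egfr (ENSMUSG00000020122) lies on the same chromosome as Erbb2, from 16752203 to 16918158 on the plus strand.

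High MMP 1, in which Egfr, Erbb2 and Erbb3 were lowest, also differed from the other libraries by transcript length. Among genes with a mean of at least 100 normalized reads, the 2499 with the shortest exons had a median log2 level, relative to each gene's mean over the 4 libraries, of 0.08 in high MMP 1 and -0.08 in high MMP 2. For the 2498 with the longest exons it was -0.09 in high MMP 1 and 0.07 in high MMP 2. For the class of 4666 to 7119 bases, which includes Erbb2, Erbb3, Hbegf and Tgfa, it was -0.05 in high MMP 1 and 0.01 in high MMP 2. Areg was in the class of the shortest exons. Egfr, Btc, Epgn and Ereg averaged under 100 normalized reads and were in no class. Both low MMP libraries stayed between -0.02 and 0.05 in these length classes. The part of transcript length in the values of these ligands and receptors, among them Egfr with exons of 11326 bases, was not tested. The 3′ end of Erbb2 overlaps the gene Mien1 on the opposite strand by a few bases, and Egfr overlaps the antisense gene Egfros. Mien1 was at 275 to 332 normalized reads and differed by 0.15 on the log2 scale (SE 0.11), the opposite direction to Erbb2, and Egfros was at 2.51 to 10.6. Whether reads were counted by strand is not given in the sources used here, so reads from such overlaps cannot be assigned with certainty.

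**Figure D2:**
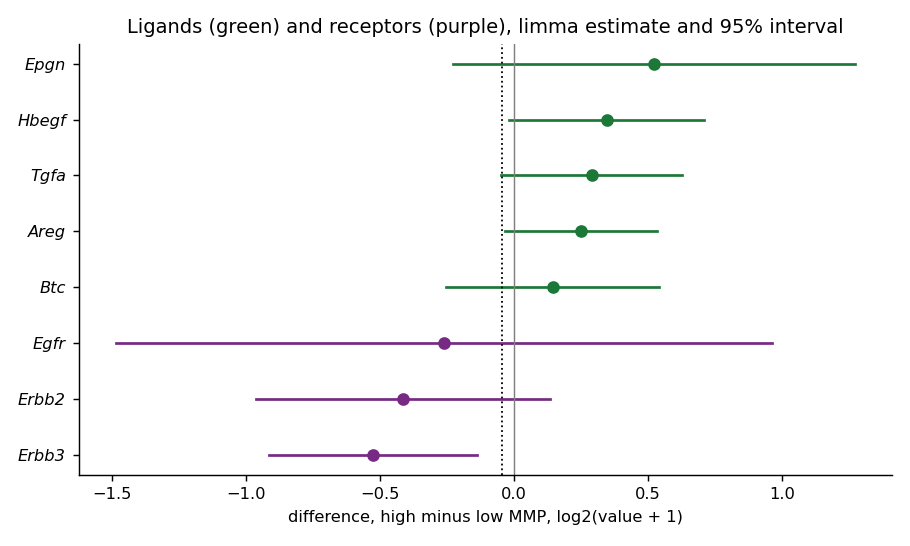
Difference between high and low MMP for 8 of the 9 genes on the log2(normalized reads + 1) scale (points, with the 95% interval from limma as lines; dotted line, median of all genes at -0.04). Ereg, at the detection limit, is left out. The interval lies on a single side of 0 only for Erbb3, from -0.91 to -0.14, and is widest for Egfr.

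Set against all genes, 0 of the 9 had an adjusted p under 0.05, as had 0% of the 20197 genes (limma), and 2011 genes had an unadjusted p under 0.05. By edgeR on the recovered reads, 0% of 13329 genes passed (1055 at an unadjusted p under 0.05). By DESeq2 0.985% of 11974 genes passed, none of them among the 9. Of the 9, edgeR tested 8, without Ereg, and DESeq2 gave an adjusted p for 7, without Ereg and Epgn. Under limma, 6.01% of all genes had an unadjusted p under 0.05 with a lower level in high MMP, as Erbb3 did, and 3.95% with a higher level, as none of the 9 did. By edgeR's quasi-likelihood test, Hbegf, Areg, Tgfa and Erbb3 were all under 0.05 before adjustment, with adjusted p-values of 0.530, 0.597, 0.599 and 0.436.

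Of the 9 genes, 5 were higher in high MMP without overlap, against 13.5% of all genes and 14.3% of the 12902 genes that averaged 10 or more normalized reads. The 2 of the 9 that were lower without overlap, both receptors, were near the corresponding shares of 24.5% and 23.7% of genes. The median log2 difference was 0.27 for the 6 ligands, 0.29 for the 5 above the detection limit, -0.41 for the 3 receptors and -0.04 for all genes. These counts describe genes that were chosen with results of these data known. An exact permutation test of 2 against 2 samples cannot give a two-sided p below 0.33, so none was used for single genes. In bulk samples, fewer cells expressing a gene and less of its RNA per cell cannot be told apart.

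Per kilobase of exon, which makes levels of different genes comparable, Hbegf (1028 ± 175 normalized reads per kb, SD over the 4 libraries) and Areg (848 ± 102) led the family, with overlapping ranges. Tgfa followed at 299 ± 42.2 and Erbb2 at 211 ± 43.0, and their ranges were separated by little, 247 at the lowest for Tgfa against 242 at the highest for Erbb2. Erbb3 was at 66.0 ± 14.9 and Btc at 20.4 ± 1.32, each apart from its neighbors. Epgn (10.2 ± 2.50) and Egfr (8.58 ± 2.84) overlapped, and Ereg was at 0.245 ± 0.287. Exon length counts every annotated exon, so a gene with long exons that these cells do not use, a possibility for Egfr, would have its level understated.

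Summed per kilobase, the 6 ligands were at 2239 and 2636 in high MMP 1 and 2 and at 1983 and 1964 in low MMP 1 and 2. The 3 receptors were at 202 and 287 in high MMP and 335 and 317 in low MMP, so the sums did not overlap between groups in either case. Hbegf made up 43.6% to 48.1% of the ligand sum and Areg 37.4% to 40.3%, and Erbb2 made up 72.1% to 75.4% of the receptor sum. Egfr was 2.44% to 3.91% of the receptor sum. The make-up of both sums thus varied little between libraries, while their size differed. Without scaling for length, 3.74% of all genes had a higher mean than Hbegf, 21.9% a higher mean than Erbb2 and 49.7% a higher mean than Egfr.

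**Figure D3:**
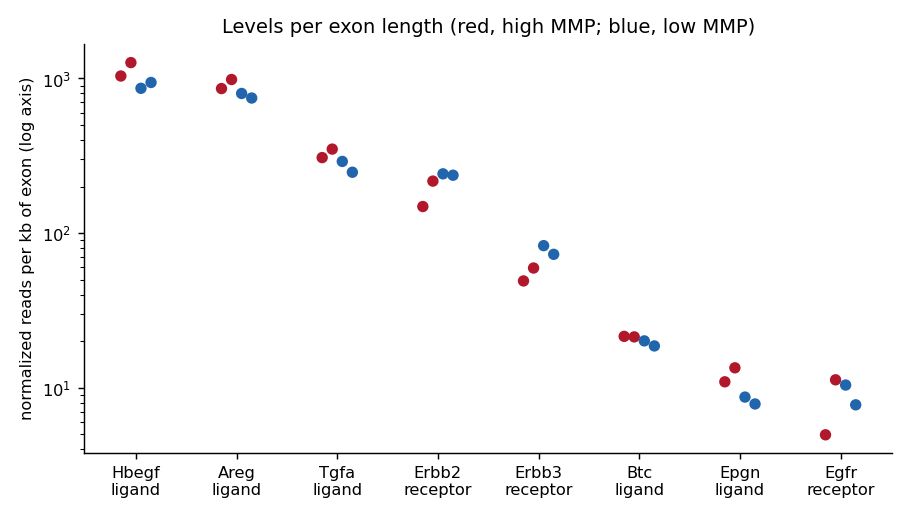
Level of 8 of the 9 genes in normalized reads per kilobase of exon (log axis; points are the 4 libraries, high MMP in red and low MMP in blue). Ereg, with libraries at 0, is left out. The order by mean runs from Hbegf at 1028 and Areg at 848 down to Egfr at 8.58, and the points of neighboring genes overlap for Hbegf with Areg and for Epgn with Egfr.

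Epgn, Ereg, Areg and Btc lie next to each other on chromosome 5 within 376 kb, with no other protein-coding gene between them. From Epgn the gaps are 39.4 kb to Ereg, 46.0 kb to Areg and 208.8 kb to Btc, the only gene of this cluster on the minus strand. Levels in this cluster differed widely, from 848 normalized reads per kb for Areg to 20.4 for its neighbor Btc, 10.2 for Epgn and 0.245 for Ereg. The other 5 genes of the family lie on chromosomes 6 (Tgfa), 10 (Erbb3), 11 (Egfr and Erbb2) and 18 (Hbegf). The differences between high and low MMP in the cluster, 0.25 for Areg, 0.14 for Btc and 0.52 for Epgn on the log2 scale, were of the same direction as those of Hbegf and Tgfa elsewhere in the genome.

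Likeness of pattern over the 4 libraries was measured as the root mean square distance between log2 values centered on each gene's mean, among 9999 genes with a mean of at least 100 normalized reads. Nearest to Hbegf were Pdgfb, a platelet-derived growth factor chain (0.0311), Dlk2 (0.0393) and Vangl1 (0.0427). Pdgfb was at 2322, 2862, 1911 and 2208 normalized reads in high MMP 1 and 2 and low MMP 1 and 2, the same order as Hbegf. Areg was at a distance of 0.0977 from Hbegf, with 142 genes nearer, and Tgfa at 0.135, with 486 nearer. Many genes were thus nearer to Hbegf than either ligand. The receptors Erbb2 (0.394) and Erbb3 (0.449) were farther from Hbegf, with 9437 and 9714 genes nearer. Nearest to Erbb2 were the unnamed gene ENSMUSG00000118667 (0.0105), Paxbp1 (0.0143) and Itpripl1 (0.0161), and 532 genes were nearer to it than Erbb3 (0.123). With 4 libraries, many genes match any pattern closely.

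The rest of the pathway was described through 5 lists with 58 genes in the table, of which none passed adjustment in limma, 2 were higher and 2 lower in high MMP at an unadjusted p under 0.05, and 14 were higher and 8 lower without overlap. Over all genes the shares were 3.95% and 6.01% at that p, and 13.5% and 24.5% without overlap. The median log2 difference of the 58 genes was -0.0017, against -0.04 for all genes. Of the other family ligands, the neuregulin gene Nrg1 was at 311, 457, 325 and 310 normalized reads in high MMP 1 and 2 and low MMP 1 and 2. Only high MMP 2 stood above the rest, and the groups overlapped. Egf itself was at 10.6 to 14.2 normalized reads, with a log2 difference of -0.12 (SE 0.31), and Nrg2 was at 38.6 to 54.9 with a difference of -0.31 (SE 0.22). Nrg3, Nrg4 and Erbb4 had no row in the expression table.

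The sheddase list had 7 genes, with a median log2 difference of -0.16 and none with an unadjusted p under 0.05. Adam17, the main sheddase of Areg, Hbegf and Tgfa, was at 1957 and 2626 normalized reads in high MMP and at 2933 and 2714 in low MMP, without overlap. Its log2 difference was -0.32 with an SE of 0.17 (limma adjusted p = 0.668). Adam15 had a similar profile, at 887 and 1209 in high MMP and 1284 and 1237 in low MMP. For both sheddases, as for Erbb2, high MMP 1 was far below the other 3 libraries.

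The 20 adaptors and signal relay genes had a median log2 difference of -0.03 and none with an unadjusted p under 0.05. Plcg1, a phospholipase that binds activated receptors, differed by -0.20 (SE 0.08). Of 13 receptor inhibitors and turnover genes, 5 were higher in high MMP without overlap (13.5% of all genes), with a median of 0.08 over the list. Errfi1, whose product binds and inhibits EGFR and ERBB2, was at 9432 and 12178 normalized reads in high MMP and 8408 and 7743 in low MMP. Both high MMP samples were above the low MMP samples, with a log2 difference of 0.41 (SE 0.16, limma adjusted p = 0.531). Sh3kbp1, an adaptor in receptor endocytosis, differed by 0.21 (SE 0.11).

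The 15 transcriptional outputs of the ERK pathway went in both directions. At an unadjusted p under 0.05 in limma, 2 were higher in high MMP (3.95% of all genes) and 2 lower (6.01%). Without overlap, 4 were higher (13.5% of all genes) and 4 lower (24.5%, near the share in this list). Phlda1 was at 2654 and 3090 normalized reads in high MMP and 1997 and 2009 in low MMP, a log2 difference of 0.52 (SE 0.10). It was the 1 gene of the 5 lists that passed in DESeq2 (adjusted p = 0.0295), and its adjusted p in limma was 0.472. Fosl1, an AP-1 subunit, was at 5140 and 5202 in high MMP and 3616 and 4106 in low MMP, a difference of 0.42 (SE 0.10). On the other side were Spry1, an inhibitor of receptor signaling to ERK, at 526 and 536 in high MMP against 657 and 701 in low MMP, and the transcription factor Etv4, at 2239 and 2328 against 2715 and 2628. These differences were -0.35 (SE 0.08) and -0.23 (SE 0.08), and the groups overlapped for none of these 4 genes.

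Genes of 2 other programs were set beside the family because they can move with growth factor signaling or with the sort. Of 20 G2/M-phase genes, 14 had an unadjusted p under 0.05 in limma, all higher in high MMP (3.95% of all genes). Without overlap, 17 were higher (13.5% of all genes) and 1 was lower (24.5% of all genes). The median log2 difference of the list was 0.57. After adjustment 11 passed in DESeq2 (0.985% of the genes it tested), and none in limma or in edgeR without a block. Their summed level was 126770 and 136562 normalized reads in high MMP and 86966 and 89774 in low MMP. The genes of smallest p were Nusap1, Ube2c, Aurka and Kif11, with log2 differences of 1.22, 1.30, 0.98 and 0.93 (SE 0.08 to 0.09). The ligand sums were likewise higher and the receptor sums lower in both high MMP libraries, and the part of cell cycle phase in these values was not tested.

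Of 22 immediate-early genes, 2 had an unadjusted p under 0.05 with a higher level in high MMP (3.95% of all genes) and 9 were higher without overlap (13.5% of all genes), with a median log2 difference of 0.34. None of the 22 passed adjustment in limma. Egr1 was at 10354 and 9783 normalized reads in high MMP and 6032 and 8141 in low MMP, a difference of 0.52 (SE 0.17), and Ccn1 differed by 0.64 (SE 0.22, DESeq2 adjusted p = 0.0399, limma adjusted p = 0.472). Other genes of this list split the libraries across the groups. Fos was at 2419, 521, 326 and 2357 normalized reads in high MMP 1 and 2 and low MMP 1 and 2, and Fosb at 4855, 601, 389 and 5063. These 2 genes and Atf3, named after their values were seen, were 5.64-, 10.0- and 3.97-fold higher in the mean of high MMP 1 and low MMP 2 than in that of the other libraries. Hbegf, Areg and Tgfa did not follow this split, as each was highest in high MMP 2.

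**Figure D4:**
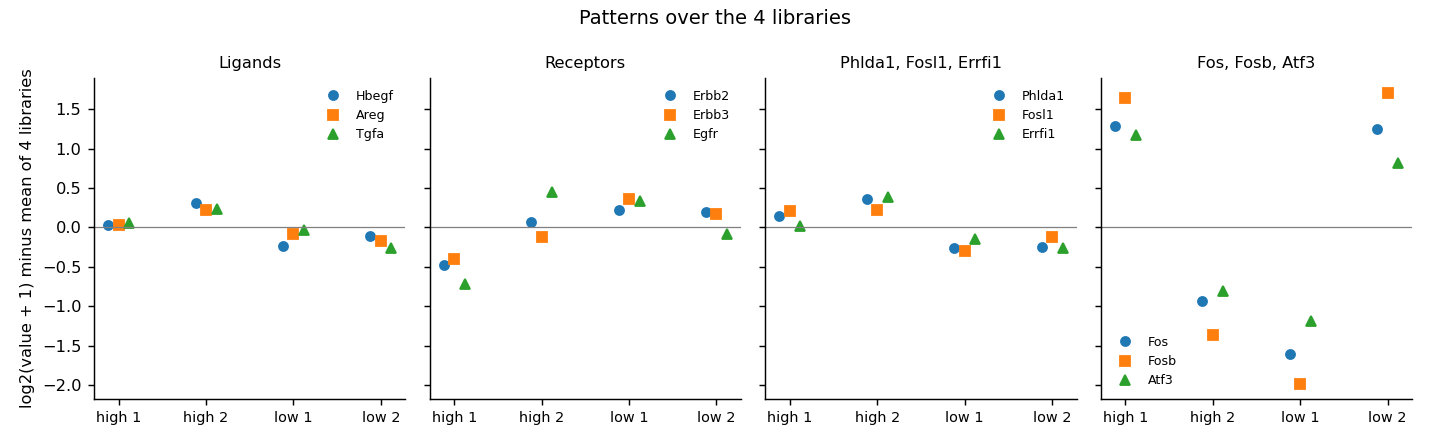
Log2(normalized reads + 1) minus each gene's mean over the 4 libraries, by library, for the abundant ligands, the 3 receptors, the pathway genes Phlda1, Fosl1 and Errfi1, and Fos, Fosb and Atf3. The 3 ligands are highest in high MMP 2, the 3 receptors are lowest in high MMP 1, and Fos, Fosb and Atf3 are high in high MMP 1 and low MMP 2.

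**Figure D5:**
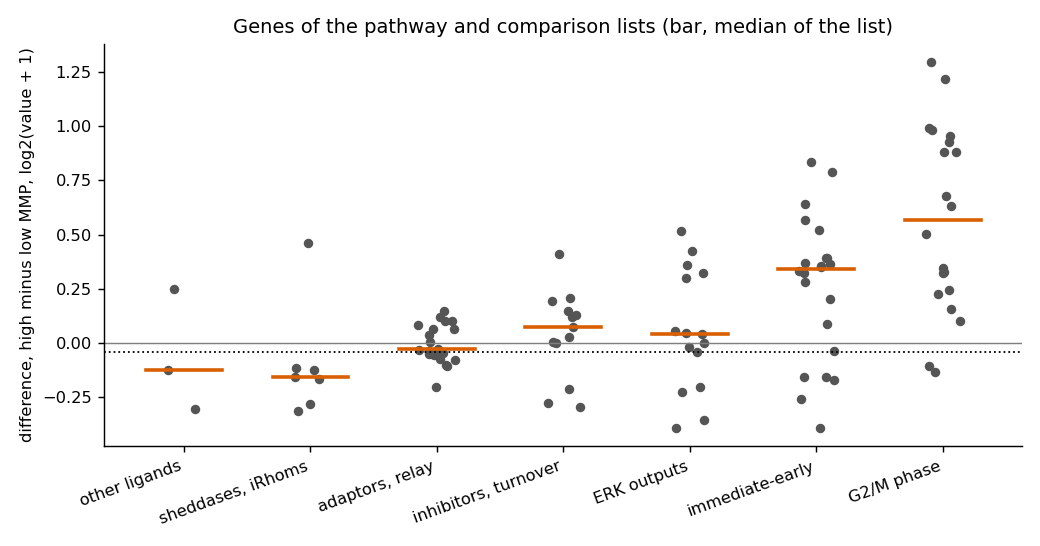
Log2 difference between high and low MMP for each gene of the 5 ERBB pathway lists and the immediate-early and G2/M lists (points; orange bar, list median; dotted line, median of all genes at -0.04). The medians lie between -0.16 and 0.08 for the 5 pathway lists, at 0.34 for immediate-early genes and at 0.57 for G2/M genes.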

How the data were processed

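RNA was sequenced from 4 samples of sorted 4T1 cells, 2 of high and 2 of low MMP, with 200 ng of RNA per stranded mRNA library. Per the labels and the methods, the authors used STAR to align reads to GRCm38 (mm10), counted reads per gene (HTSeq is named in the submitters' processing notes), scaled each library to its total and kept genes expressed in at least 2 samples. Versions, annotation release and strand setting are not given in the sources used here. The deposited values are this normalized signal, summing to 20000000 per library, and 0 genes were above 0 in fewer than 2 samples. The table had 0 columns of no sample. Dividing each column by its smallest step gave whole reads for 100% of values (tolerance 0.05).

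Groups came from the sample titles. The test was limma 3.58.1 on log2(value + 1) (eBayes with a trend, R 4.3.3), with no filter and Benjamini-Hochberg adjustment over 20197 genes at 0.05. Adding 1 shrinks the log2 differences of low genes, whereas the folds are ratios of group means to which nothing was added. Alternatives on the recovered reads were edgeR 4.0.16 (its quasi-likelihood test) and DESeq2 1.42.0, and scripts were tested on simulated data. Positions and exon lengths came from GENCODE M21 (19993 identifiers matched) and promoters from RefSeq. The 9 genes and the gene lists were chosen with earlier results of these data known. Named were the 9 genes, the other family ligands, up to 4 genes per list with the smallest p under 0.05 (otherwise the first 2), genes overlapping or between the 9, and the 3 genes nearest to Hbegf and to Erbb2. Marker genes and any named outside this rule were chosen after their values were seen. A further gene that this rule names is not reported here.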

Additional observations from a re-analysis of the deposited data

How the results depend on the processing

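Over 17 alternatives and the 8 genes above the detection limit, 133 of 136 log2 differences kept their direction and their side of the threshold. DESeq2 gave no adjusted p for Epgn, which is counted among these by its direction. Egfr ranged from -0.85 to 0.32 when each library was left out in turn, reversing without high MMP 1. The ranges over all alternatives were 0.20 to 0.49 for Hbegf (adjusted p 0.0562 to 0.959), 0.15 to 0.35 for Areg, 0.17 to 0.41 for Tgfa, -0.66 to -0.39 for Erbb3 and -0.69 to -0.14 for Erbb2. No alternative with limma called a gene, and 118 genes passed in DESeq2, with 1 gene of the pathway lists. The fit with the replicate number as a block called 0 genes in limma (1055 at an unadjusted p under 0.05). In edgeR it called 52 of 13329 genes, 0 of them among the 9 genes. Same-numbered samples did not deviate together (r = -0.421 over 12902 genes), so the numbers are not read as pairs. With crossed numbers as the block, chosen after seeing the data, edgeR called 621 of 13329 genes, 318 of them higher in high MMP. Of the 9 genes, 8 were tested in this fit and 2 were called (Erbb2 and Erbb3, both lower in high MMP). Among the 58 genes of the pathway lists, 6 were called. With 2 samples a group, a fold change near those of the ligands is hard to separate from the spread, and Epgn and Ereg were limited by depth.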

Other observations

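Cell type markers outside the family were also compared. The fibroblast and mesenchymal marker Pdgfra, chosen after its values were seen, was at 319 and 363 normalized reads in high MMP 1 and 2 and at 536 and 589 in low MMP 1 and 2, without overlap, with a log2 difference of -0.72 (SE 0.11, adjusted p = 0.472 in limma and 0.0399 in DESeq2). The other 4 of the 5 fibroblast markers analysed had few reads and went in both directions. Pdgfrb had 8 to 12 reads per library and a log2 difference of -0.52 (SE 0.32), and Col1a1 had 8 to 39 reads and a difference of -1.04 (SE 0.79). Col1a2 and Dcn had at most 12 reads, with differences of 0.51 (SE 0.81) and 0.67 (SE 0.67). The monocyte marker Cd14 was at 224 to 320 normalized reads, with Ptprc at 0 to 2 reads in the same libraries.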
